A study of Mus musculus with 6 samples.

Results

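Of the 51912 genes in the deposited count table, 10 are described here: the 4 FOS genes Fos, Fosb, Fosl1 and Fosl2, the 3 JUN genes Jun, Junb and Jund, the zinc finger genes Egr1 and Egr2, and Ier3. They were chosen by symbol, and each symbol matched 1 row. R1 mouse embryonic stem cells, an established line, had been held in the naive state in 2iLIF medium, in which MEK and GSK3 are inhibited and LIF is supplied. Both groups were then given N2B27, which contains no serum, together with 100 ng/ml of FGF2, 1 group for 24 h and the other for 48 h, and 3 replicates of each were turned into sequencing libraries by the KAPA mRNA HyperPrep method. Both groups carry the same agent and medium and differ in duration, and cells without FGF2 were not analysed here. Effects of FGF2, of the medium and of time in culture therefore cannot be told apart.

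FGF2 binds receptor tyrosine kinases that switch on the RAS, RAF, MEK and ERK cascade. ERK phosphorylates ETS-type cofactors bound beside the serum response factor SRF, and within minutes this turns on immediate-early genes, whose transcription needs no new protein. The FOS and JUN proteins pair through leucine zippers to form AP-1, a dimer that binds DNA; FOS proteins need a JUN partner, whereas JUN proteins can also pair with each other. EGR1 and EGR2 are zinc finger factors that bind GC-rich sites, and IER3 is a small immediate-early protein linked to ERK signalling and cell survival. In most cells the messages of Fos and Egr1 peak early after a stimulus and decay quickly. The libraries were taken a day or more after FGF2 was given, and no earlier time was analysed here. Whether levels had settled by then was not tested.

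The sequence just before the start site is where SRF, ETS, AP-1 and EGR factors are known to act on these genes. RefSeq (GRCm38.p6) start sites were held for 8 of the 10 genes; Fosl1 and Egr1 were without one. The 250 bases before the start are shown for Jun, which rose and for Fos and Junb, its relatives without a detected change. These 3 windows hold no annotated exon in GENCODE M21, and their RefSeq starts lie within 30 bases of the start of the GENCODE model. The other windows overlap an exon or, for Jund and Egr2, belong to starts that lie further away. The RefSeq start of Jund is 1210 bases before that of the model, and the starts of the 2 Egr2 windows without an exon are inside the model, at offsets of -2091 and -2394 bases on the same count. Letters are 5′ to 3′ on the gene's strand, and capitals mark motif matches.
Jun, chr4:95052223-95052472, minus strand: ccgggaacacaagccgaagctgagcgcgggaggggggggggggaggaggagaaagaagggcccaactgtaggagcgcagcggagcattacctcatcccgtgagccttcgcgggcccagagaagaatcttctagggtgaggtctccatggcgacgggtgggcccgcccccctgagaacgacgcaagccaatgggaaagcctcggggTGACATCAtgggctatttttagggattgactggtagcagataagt
Junb, chr8:84978749-84978998, minus strand: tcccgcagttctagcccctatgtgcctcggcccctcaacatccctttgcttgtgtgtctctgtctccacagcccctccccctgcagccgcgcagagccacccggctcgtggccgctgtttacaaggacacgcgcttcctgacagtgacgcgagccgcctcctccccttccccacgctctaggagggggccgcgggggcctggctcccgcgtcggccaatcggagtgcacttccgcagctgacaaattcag
Fos, chr12:85473640-85473889, plus strand: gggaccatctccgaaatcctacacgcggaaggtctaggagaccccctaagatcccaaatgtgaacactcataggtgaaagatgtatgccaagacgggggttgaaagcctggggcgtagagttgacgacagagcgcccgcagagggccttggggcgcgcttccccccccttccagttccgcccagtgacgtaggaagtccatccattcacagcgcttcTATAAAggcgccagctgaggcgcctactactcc

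On both strands, 7 motifs were searched: TGANTCA (AP-1), TGACGTCA (CRE), TGACATCA (an AP-1-like site), GCGNGGGCG (EGR), CCGGAA (ETS), the TATA box TATAAA and the SRF CArG box. Of these, a CArG box can contain TATAAA. The Jun window held TGACATCA from base 45 to base 38 before the start, and 2.93% of all 32817 RefSeq windows of this length held that string. Fos held TATAAA from base 33 to base 28, against 12.4% of all windows. Junb matched none of the 7, and the CArG box, TGANTCA, TGACGTCA, GCGNGGGCG and CCGGAA, which were in 1.47%, 6.75%, 1.55%, 4.7% and 12.02% of all windows, matched in none of the 3 windows shown. Of the windows not shown, those of Fosb and Fosl2 held GCGNGGGCG, and some of Egr2 held the CArG box or CCGGAA. The window of Jund, which also rose, and that of Ier3 matched none of the 7. Sites further upstream and variants of these strings were not searched, so a window without a match may still have such sites nearby. A match describes letters, not binding.

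The libraries held between 19574969 and 23133148 estimated counts, so that 3 counts, the most that a count of 0 allows, correspond to between 0.127 and 0.150 CPM (counts relative to the scaled library total). All such limits and counting intervals cover counting error only. A gene entered the test when at least 3 libraries reached 0.449 CPM, which corresponds to the test's minimum count of 10. The 6 stem cell markers Pou5f1, Sox2, Sall4, Esrrb, Utf1 and Dppa5a lay between 201.6 and 1111 CPM in the means of either group. Utf1 and Sall4 rose by 0.60 and 0.22 on the log2 scale, while Esrrb, Dppa5a, Sox2 and Pou5f1 had log2 fold changes of -1.47, -0.70, -0.37 and -0.07, all called lower. The summed level of the 6 was between 3533 and 3551 CPM at 24 h and between 2789 and 2842 at 48 h. Of 8 fibroblast markers, Lum and Postn were at 0 in all 6 libraries, and the sum lay between 4.05 and 6.02 CPM at 24 h and between 3.13 and 4.47 at 48 h. Pdgfrb fell, and so did Col1a1, which reached the level needed for testing in the 24 h libraries alone, while Dcn, at 0 in the 24 h libraries, was at 1.21 ± 0.20 CPM (SD, n = 3) at 48 h and entered the test through those libraries. The 6 primitive endoderm markers summed to between 6.46 and 8.30 CPM at 24 h and between 3.43 and 3.82 at 48 h, through Gata4, which fell by 1.38 on the log2 scale, while Foxa2 had at most 3 counts in a library. The 6 trophectoderm markers fell in sum from between 27.5 and 28.5 CPM to between 7.0 and 7.85, through Krt8 and Tfap2c, while Cdx2 had at most 1 count in a library. The part of these marker changes in the results that follow was not tested.

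Jun, Jund and Fosl2 rose from 24 h to 48 h, and none of the other genes passed the test in either direction. Jund, the most abundant of the 10, rose 1.34-fold and Jun 2.13-fold, whereas Junb, Fos and Egr1 had levels at the 2 times that overlapped. Fosb, Fosl1 and Egr2 did not have the counts to enter the test. Fosl2 entered it through the 48 h libraries, the group in which it is higher, so its place in the count below rests partly on that filter. Of the 7 tested genes, 3 were higher at 48 h by edgeR's quasi-likelihood test (Benjamini-Hochberg adjusted p under 0.05 over 14889 genes) and 0 were lower. Among all tested genes, 62.8% changed, 30.9% being higher and 31.9% lower, so a count of 3 in 7 is near the background and is not a result about these genes as a group. At an unadjusted p under 0.05, 1 of the 7 was lower, which was Ier3, against 33.6% of all tested genes. DESeq2 called 0 lower as well, against 22.1% of all genes to which it gave an adjusted p, and limma voom called 0, against 31.8%. Over all tested genes the log2 fold changes had a median of -0.01 and a median size of 0.26.

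**Figure D1:**
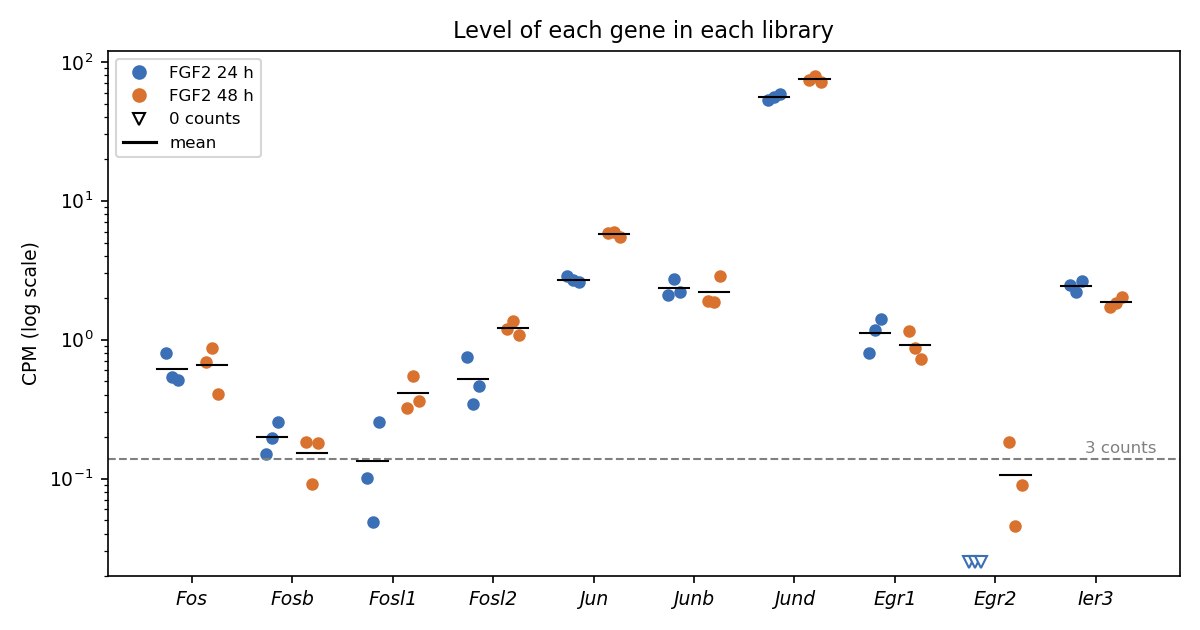
Level of each of the 10 genes in CPM on a log axis, with 1 point per library (blue, FGF2 for 24 h; orange, FGF2 for 48 h), black bars at the means of 3 libraries and a dashed line at the mean CPM of 3 counts. Jund lies above 50 CPM in every library. Jun, Fosl2, Jund and Ier3 show no overlap between the times, as did 66.9% of all tested genes. Fosl1 and Egr2, which were too low to test, show none either. For Fosl1 the nearest libraries had 6 counts at 24 h and 7 at 48 h. The open triangles mark the 3 libraries in which Egr2 had 0 counts.

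JUN proteins supply the partner without which FOS proteins do not bind DNA. Jund (ENSMUSG00000071076, chr8:70698949-70700616 in GENCODE M21, GRCm38), which encodes a JUN protein present in many resting cells and less inducible than its relatives, had 53.1, 56.1 and 58.6 CPM in the 24 h libraries and 73.5, 79.1 and 72.03 CPM at 48 h. Every 48 h library was above every 24 h library. The means were 55.9 ± 2.73 and 74.9 ± 3.75 CPM (SD, n = 3 at each time), and the fitted log2 change was 0.42 (standard error 0.04; 95% interval 0.33 to 0.51; edgeR adjusted p = 2.91e-07). It had 1061 to 1731 counts in a library, the most of the 10 genes, and its variance between replicates was 2.87 times the Poisson value at 24 h and 4.12 times at 48 h. Over both times its level per kilobase of exon exceeded that of 91.1% of the tested genes. Jund shares 877 bases of exon with the antisense gene Gm11175, which had 5 to 23 counts in a library.

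Jun (ENSMUSG00000052684, chr4:95049034-95052222), the founding member, whose protein is activated by JNK kinases and which can drive its own gene, was at 2.85, 2.69 and 2.59 CPM at 24 h and at 5.89, 5.94 and 5.46 CPM at 48 h. The groups were separated by a gap wider than the spread within either. Its fitted log2 change was 1.09 (standard error 0.12; 95% interval 0.83 to 1.35; edgeR adjusted p = 9.26e-07), a fitted fold of 2.13 with an interval from 1.78 to 2.56. The counts behind it were 55 to 61 in each 24 h library and 121 to 130 in each 48 h library. Its upstream window holds TGACATCA, and a link between that string and the rise was not tested. An antisense gene, Junos, shares 232 bases of exon with Jun on the opposite strand and had at most 2 counts in a library.

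Junb (ENSMUSG00000052837, chr8:84974484-84978718), which encodes a JUN protein that often restrains JUN itself, was at 2.10, 2.73 and 2.20 CPM at 24 h and at 1.89, 1.87 and 2.89 CPM at 48 h. The highest and the lowest of these 6 values were both from 48 h, and the groups overlapped. The fitted log2 change was -0.08 (standard error 0.20; edgeR adjusted p = 0.756), and its 95% interval allows anything from 0.70-fold to 1.28-fold. Its sign turned when any 1 of 3 libraries was left out: it was 0.04 without the second 24 h library, and 0.03 when the first or the second 48 h library was absent. Junb shares 173 bases of exon with Prdx2 on the opposite strand, a gene with 3438 to 4138 counts in a library, and whether reads were counted by strand is not given in the sources used here. The part of Prdx2 reads in the Junb level was not tested.

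Between genes, levels were compared per kilobase of exon, taking all annotated exons of a gene together. On that scale the 3 JUN genes summed to 35.4 ± 1.63 CPM per kb at 24 h and to 47.7 ± 2.14 at 48 h (SD, n = 3), without overlap. The exact permutation test (two-sided, as in all later uses) returned p = 0.1, which is the lowest that 3 libraries against 3 can reach. Jund alone made up 94.7% ± 0.46 of the sum at 24 h and 94.2% ± 0.55 at 48 h (SD, n = 3; exact permutation p = 0.4). The share of Jun moved from 2.41% ± 0.23 to 3.79% ± 0.14 (exact permutation p = 0.1), with no overlap. Junb held 2.88% ± 0.40 and 2.03% ± 0.60 (exact permutation p = 0.3). Within the sum Jun and Junb exchanged order: Junb was above Jun in every 24 h library on this scale, and Jun was above Junb in every 48 h library. That order at 24 h rests on the length scale, since in CPM Jun was above Junb in the first and the third 24 h library. Without the length correction the share of Jun moved by 2.5 percentage points in place of 1.39 (exact permutation p = 0.1), and that of Jund by -1.35 in place of -0.54 (exact permutation p = 0.1 in place of 0.4).

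FOS proteins have no stable dimer of their own and bind DNA in pairs with JUN. Fosl2 (ENSMUSG00000029135, chr5:32135801-32157842), which encodes the FRA2 protein, had 15, 7 and 11 counts in the 24 h libraries and 26, 30 and 24 at 48 h. These are 0.751, 0.342 and 0.466 CPM against 1.2, 1.37 and 1.08, without overlap. Its fitted log2 change was 1.23 (standard error 0.32; 95% interval 0.55 to 1.91; edgeR adjusted p = 0.00335). The gene reached the level needed for testing in all 3 libraries of 48 h but in 2 of 24 h, so it entered the test through the group in which it is higher. It was not tested when at least 10 counts were asked of every library.

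Fos (ENSMUSG00000021250, chr12:85473890-85477273), the classic serum-induced member, had 16, 11 and 12 counts at 24 h and 15, 19 and 9 at 48 h, or 0.801, 0.537 and 0.509 CPM against 0.690, 0.868 and 0.406. Both the highest and the lowest value came from 48 h. The fitted log2 change was 0.10 (standard error 0.37; edgeR adjusted p = 0.833). At this depth the 95% interval runs from 0.62-fold to 1.84-fold. Without replicate 3 of 24 h the value was -0.03 and without replicate 2 of 48 h it was -0.16. The replicate variance of Fos was 0.887 times the Poisson value at 24 h and 1.83 times at 48 h. All 6 libraries were above 3 counts: pooled over the group, the level was 0.609 CPM at 24 h (exact Poisson 95% interval 0.433 to 0.832) and 0.654 at 48 h (0.473 to 0.881).

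Fosl1 (ENSMUSG00000024912, chr19:5447547-5455946), which encodes FRA1, a FOS protein known from ERK-driven and trophoblast cells, had 2, 1 and 6 counts at 24 h and 7, 12 and 8 at 48 h. The mean CPM were 0.134 ± 0.107 and 0.411 ± 0.121 (SD, n = 3), with 3 counts or fewer in 2 of the 3 libraries of 24 h. No 24 h value reached the 48 h range, and p in the exact permutation test was 0.1, the lowest it can be. Fitted without a filter on low counts, the log2 fold change was 1.52 with an edgeR adjusted p of 0.0445 over 26148 genes, of which 18.3% were called higher. DESeq2 gave an adjusted p of 0.11. Fosl1 shares 1163 bases of exon with Ccdc85b on the opposite strand, which had 67 to 83 counts in a library, and the part of those reads in the Fosl1 counts was not tested.

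Fosb (ENSMUSG00000003545, chr7:19302696-19310051), known best from activated neurons, had few counts at both times: 3, 4 and 6 counts at 24 h and 4, 2 and 4 at 48 h. Pooled, these are 0.203 CPM (exact Poisson 95% interval 0.108 to 0.347) and 0.152 CPM (0.0729 to 0.280). The groups overlapped, and the exact permutation test of CPM gave p = 0.4.

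Summed per kilobase, the 4 FOS genes reached 0.414 ± 0.087 CPM per kb at 24 h and 0.630 ± 0.154 at 48 h (SD, n = 3; exact permutation p = 0.2), with values that touched: the highest 24 h library was at 0.4914 and the lowest 48 h library at 0.4908. That overlap rests on the length scale: without the length correction the log2 ratio of the FOS sum was 0.73 in place of 0.61. The exact permutation p was then 0.1, the lowest it can be. Per kilobase, the JUN sum was the larger in every library, by 68.5 to 111.7 times at 24 h and by 63.01 to 94.03 times at 48 h. The mean ratio was 88.6 ± 21.8 and 78.1 ± 15.5 (SD, n = 3; exact permutation p = 0.6). These are levels of RNA, and protein was not measured here.

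**Figure D2:**
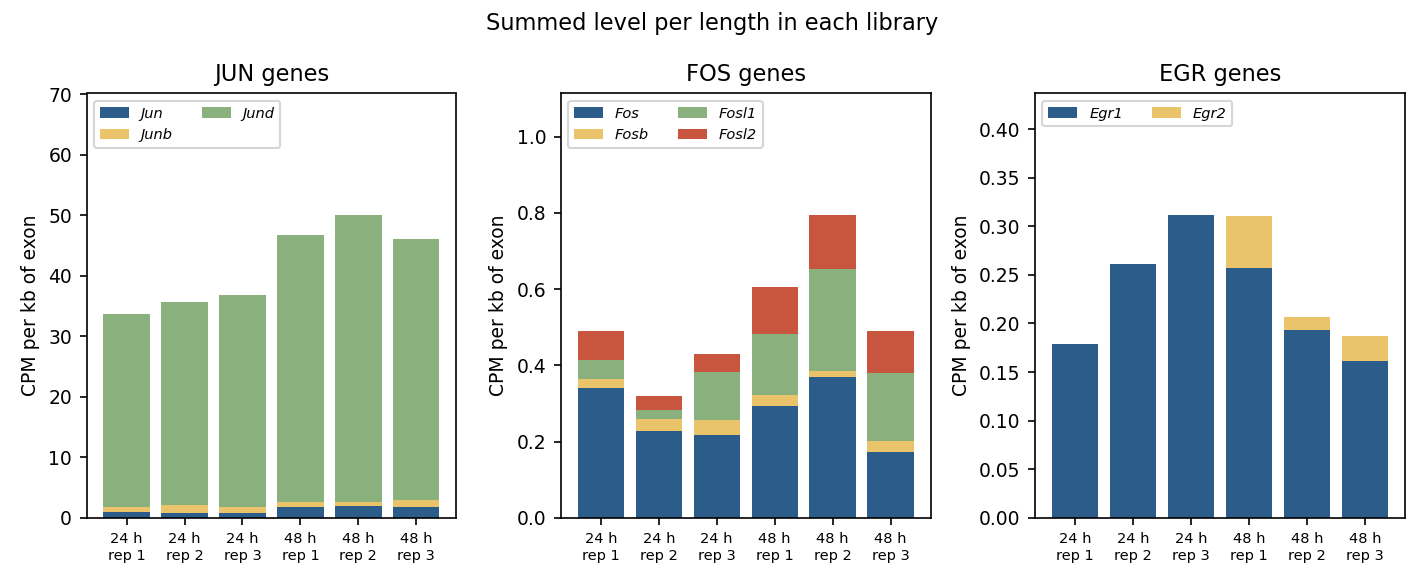
Stacked bars of CPM per kilobase of exon for the JUN, FOS and EGR genes in each of the 6 libraries, each panel with its own axis from 0. Jund fills about 94% of each JUN bar, the JUN bars at 48 h are all higher than those at 24 h, and the FOS and EGR bars stay below 1 CPM per kb.

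EGR1 links ERK activity to transcription and is itself held in check by NAB corepressors. Egr1 (ENSMUSG00000038418, chr18:34859823-34864984) had 16, 24 and 33 counts at 24 h and 25, 19 and 16 at 48 h, or 0.801, 1.17 and 1.4 CPM against 1.15, 0.868 and 0.722. The groups overlapped over most of their range. The fitted log2 change was -0.31 (standard error 0.30; edgeR adjusted p = 0.375), with a 95% interval from 0.52-fold to 1.24-fold. It was not called when any 1 library was left out, with values from -0.51 (without the first 48 h library) to -0.12 (without the third 24 h library).

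Egr2 (ENSMUSG00000037868, chr10:67535475-67542188), known for its part in hindbrain and Schwann cell development, was not detected in the 24 h libraries, with 0 counts in each. A count of 0 allows up to 0.150, 0.146 and 0.127 CPM in those libraries. At 48 h it had 4, 1 and 2 counts, so 1 of the 6 libraries was above 3 counts. No fold is given because most values lie at or below that limit. The fit without a filter gave an edgeR adjusted p of 0.0463, the exact permutation test of CPM gave p = 0.1, and DESeq2 gave an unadjusted p of 0.0842 with no adjusted value. The Egr1 and Egr2 levels summed to 0.251 ± 0.067 CPM per kb at 24 h and 0.235 ± 0.066 at 48 h (SD, n = 3; exact permutation p = 0.9). The sign of that difference turned when the third library of either time was left out, to 0.10 and 0.05 on the log2 scale.

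Ier3 (ENSMUSG00000003541, chr17:35821684-35822923) was at 2.45, 2.20 and 2.63 CPM at 24 h and at 1.70, 1.83 and 2.03 CPM at 48 h. Every 48 h library was below every 24 h library, as was the case in one direction or the other for 66.9% of all tested genes. The fitted log2 change was -0.39 (standard error 0.18) and missed the threshold (edgeR adjusted p = 0.0679). Scaled by library size alone it passed, at -0.45 (adjusted p = 0.0368), where 38.2% of all tested genes were called lower. That scaling moves the median of all tested genes from -0.01 to -0.07, and over the 16 alternatives the adjusted p of Ier3 ranged from 0.0368 to 0.236.

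**Figure D3:**
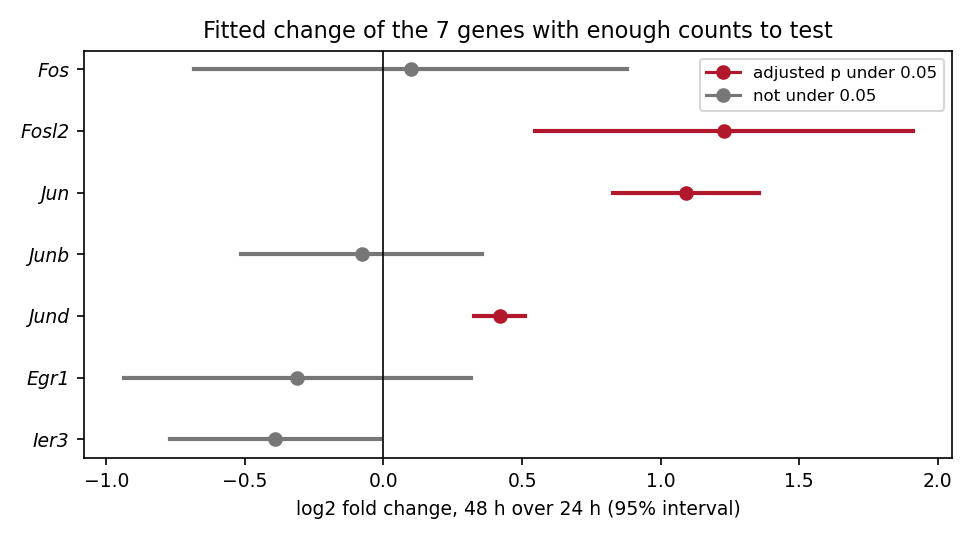
Fitted log2 fold change, 48 h over 24 h, of the 7 tested genes with 95% intervals from edgeR; red marks an adjusted p under 0.05 and grey the rest. The intervals narrow with the count, from 0.33 to 0.51 for Jund against -0.68 to 0.88 for Fos, and those of Fosl2, Jun and Jund lie above 0.

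Ordered by level per kilobase, the 24 h libraries had Jund first at 33.5 ± 1.64 CPM per kb (SD, n = 3), followed by Ier3 at 2.14, Junb at 1.02 and Jun at 0.849, with no overlap between these neighbours. Fos at 0.262 and Egr1 at 0.251 overlapped. Fosl1 at 0.0661, Fosl2 at 0.0537 and Fosb at 0.0320 each overlapped with the next, and Egr2 came last at 0. At 48 h Jund was at 44.9 ± 2.25 (SD, n = 3). Jun followed at 1.81, overlapping with Ier3 at 1.64, and Junb was at 0.963. Fos, Egr1 and Fosl1 followed at 0.278, 0.204 and 0.202, each overlapping with the next. Fosl2 at 0.126 overlapped with neither neighbour, while Egr2 at 0.0314 and Fosb at 0.0243 overlapped. The median of the tested genes was 4.39 CPM per kb. The level of Jun exceeded that of 28.3% of them, Junb 24.02%, Ier3 33.8%, Fos 8.75% and Egr1 7.19%, so 9 of the 10 genes lay in the lower part of the range and Jund near its top. Since all annotated exons are counted in the length, a gene with a long annotated total, such as Fosl2 with 9680 bases, is placed lower than in CPM. Which of its exons were in use was not tested.

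Likeness was sought for called genes averaging 5 CPM or more, which left Jund. The 3 genes closest to it in pattern were Micu2, Ccdc85c and Ly6e, with Pearson correlations of log2 CPM over the 6 libraries of 0.998, 0.998 and 0.997. Their log2 fold changes were 0.34, 0.31 and 0.17. As 2508 of the 10427 genes compared had a correlation of at least 0.9 with Jund, and all 6 points share the split into 2 times, this describes a common shape and no more.

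Genes that act with or on this family, and 22 other immediate-early genes, were followed in 5 lists with 52 genes. Of these, 46 were tested, 21 rose, 14 fell and 11 did not pass. That is 35 of 46 against 62.8% of all tested genes. The NAB corepressors of EGR factors both fell: Nab2, itself a known EGR target, stood at 9.16 ± 0.54 CPM on the first day and 3.74 ± 0.47 on the second (SD, n = 3; log2 fold change -1.29, edgeR adjusted p = 3.63e-08), and Nab1 had a log2 fold change of -0.61. Egr3 had at most 1 count and Egr4 at most 4 in a library.

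Among 10 other leucine zipper genes that can join AP-1, 7 were tested, 2 rose, 2 fell and 3 did not pass (all tested genes: 30.9% higher, 31.9% lower), with a median log2 fold change of 0.04. Jdp2, a repressor that pairs with JUN proteins, fell most: its 10.1 ± 1.17 CPM became 3.5 ± 0.74 (SD, n = 3; log2 fold change -1.53, edgeR adjusted p = 5.4e-08). Atf3, a stress-induced repressor, fell by 0.31 on the log2 scale (adjusted p = 0.0215). Mafk rose by 0.85, and Atf2, a JUN partner at CRE sites and the most abundant gene of the list in CPM, rose by 0.17. Atf7, at -0.13, did not pass but was called under library-size scaling (-0.19, adjusted p = 0.014). Batf, Batf2 and Batf3, the lymphoid members, had at most 3 counts in a library.

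SRF and its cofactors carry the ERK signal to immediate-early genes. Srf rose, with 32.9 ± 0.91 CPM at 24 h and 50.2 ± 0.12 at 48 h (SD, n = 3; log2 fold change 0.61, edgeR adjusted p = 8.47e-10). The 3 ETS cofactors fell, Elk3 with 14.4 ± 1.88 CPM at 24 h and 6.15 ± 0.62 at 48 h (log2 fold change -1.22, adjusted p = 4.67e-08). Elk4 fell by 0.21 (edgeR adjusted p = 0.0275) and Elk1 by 0.17 (edgeR adjusted p = 0.00387) on that scale. Mrtfa and Mrtfb, the actin-regulated cofactors, had log2 fold changes of 0.01 and -0.09 and did not pass. Scaled by library size alone, Mrtfb passed at -0.15 (adjusted p = 0.00452).

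Of 22 other immediate-early genes, 21 were tested, 11 rose, 5 fell and 5 did not pass, where 30.9% of all tested genes were higher and 31.9% lower, with a median log2 fold change of 0.20. The largest increases were those of Csrnp1, a nuclear factor, with 14.3 ± 1.69 and then 42.9 ± 0.50 CPM (SD, n = 3; log2 fold change 1.59, edgeR adjusted p = 1.6e-12), and of the kinase gene Plk3, with 15.8 ± 0.43 and then 37.6 ± 0.91 CPM (1.25, adjusted p = 2.23e-12). Ier5 rose by 1.1, the pseudokinase gene Trib1 by 0.97, the MAP kinase phosphatase gene Dusp1 by 0.63, Myc by 0.62 and the survival gene Mcl1 by 0.55. The largest decreases were those of Gadd45b, a stress sensor, from 5.49 ± 0.60 to 1.08 ± 0.39 CPM (-2.35, adjusted p = 2.84e-08), and of the orphan receptor gene Nr4a1, from 21.1 ± 0.64 to 8.41 ± 0.70 CPM (-1.33, adjusted p = 2.65e-10). Ier2 stood at 85.8 ± 0.37 and 85.3 ± 0.37 CPM, with a 95% interval of its log2 fold change from -0.07 to 0.05, though it was called under library-size scaling at -0.07 (adjusted p = 0.0445). Klf6, which rose by 0.13, lost its call under that scaling (0.07, adjusted p = 0.102), and Ccn2 gained one (-0.14, adjusted p = 0.0306).

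Of the 10 kinase genes of the ERK and JNK routes, 7 rose, 2 fell and Map2k4 did not pass, against 30.9% higher and 31.9% lower among all tested genes. Mapk3, which encodes ERK1, rose by 0.33 on the log2 scale. Of the JNK genes, Mapk8 rose by 0.26 and Mapk9 fell by 0.24. Mapk10, the JNK gene of neurons, had 2 to 3 counts in the 24 h libraries and 12 to 18 at 48 h, and it entered the test through the 48 h libraries alone. Map2k7 lost its call under library-size scaling, going from 0.09 to 0.03 (adjusted p = 0.331).

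**Figure D4:**
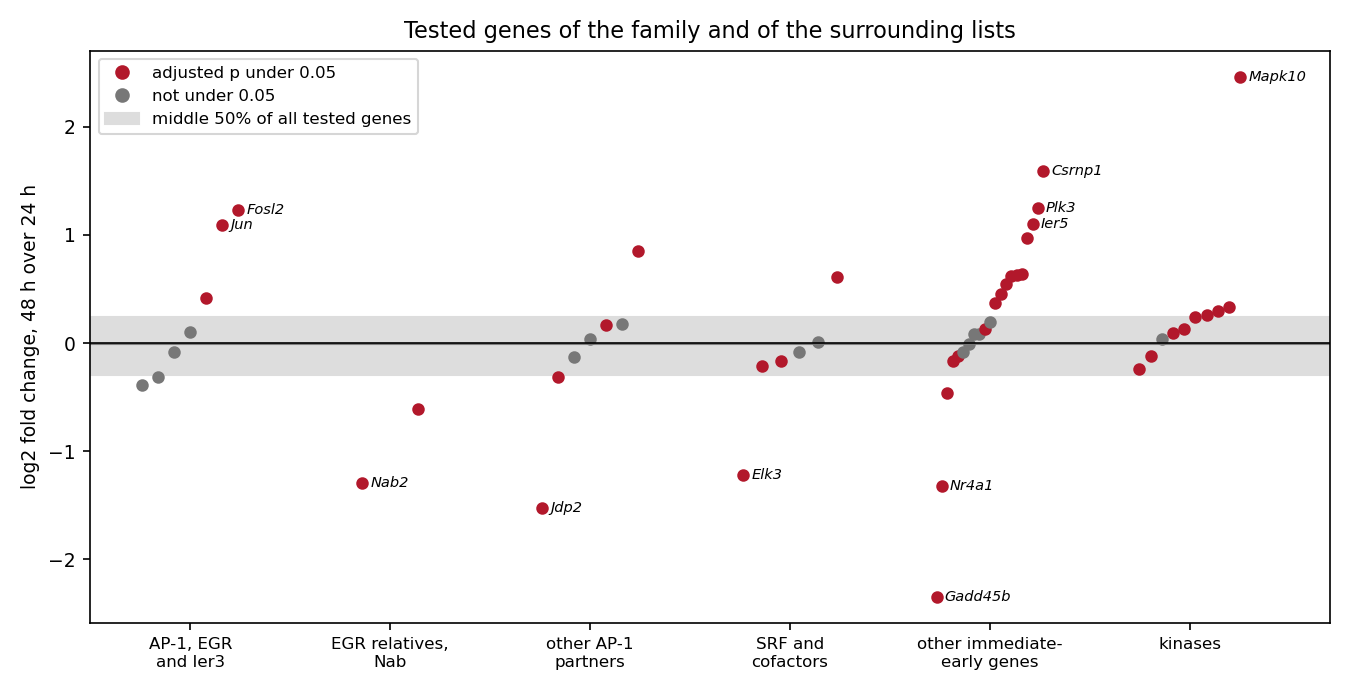
Log2 fold change, 48 h over 24 h, of each tested gene among the 10 described here and in the 5 surrounding lists; red marks an edgeR adjusted p under 0.05, grey the rest, and the grey band the middle 50% of all tested genes, from -0.30 to 0.24. Genes that moved by at least 1 on the log2 scale are named; both EGR corepressors lie below 0, and every other list has points on both sides of it.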

How the data were processed

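The authors deposited 1 table of estimated counts per gene, not scaled for depth or length, with 1 column per library. The submitters' processing notes name cutadapt 1.9.1, STAR 2.5.2, RSEM 1.3.0 and the build GRCm38, with no role or order; annotation, filters and the use of strand are not given in the sources used here. RSEM divides reads shared between genes, so counts need not be whole; those of the 10 genes were whole, and 6 genes of the surrounding and marker lists had fractional ones. Symbols from GENCODE M21 matched 51633 identifiers.

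Counts were rounded, filtered with filterByExpr (minimum count 10) and scaled by TMM. The times were compared by edgeR's quasi-likelihood test (edgeR 4.0.16, R 4.3.3) on the time group alone, and p-values were adjusted by Benjamini-Hochberg over the 14889 genes tested, with a threshold of 0.05. CPM are counts over TMM-scaled totals. The standard error is the log2 fold change over the square root of F. Levels per length used the union of GENCODE M21 exons. Single values were compared by two-sided exact permutation tests. The edgeR fit was tested on simulated data in which far fewer genes changed than the 62.8% called here. That test does not cover such widespread change.

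The 10 genes and the lists were chosen with earlier results of these data known. All 10 are named; list genes may be named; the genes most like a called member were taken by correlation. Coordinates are GENCODE M21. Replicates are the 6 separately numbered libraries, and the labels do not state separate cultures, so p-values measure only the spread between these libraries; replicate pairs differed by 1.84 to 2.29 in chi-square per degree of freedom, more than sampling noise. Alternatives were RLE, upper quartile and library-size scaling, 2 other filters, DESeq2 1.42.0, limma 3.58.1 voom, unrounded counts, a replicate block, a threshold of 0.01 and leaving out each library.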

Additional observations from a re-analysis of the deposited data

How the results depend on the processing

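The rises of Jun and Jund kept direction and call in all 16 alternatives, with log2 fold changes from 1.03 to 1.13 and from 0.36 to 0.45, and that of Fosl2 in the 15 that tested it (1.01 to 1.56). The count of higher genes was 3 of the 10 in all but 2 alternatives, and how many of the 10 were tested differed between alternatives. It was 2 with at least 10 counts in every sample, which does not test Fosl2. With every gene with a count tested it was 5, which adds Fosl1 and Egr2, and 18.3% of all 26148 genes were called higher there. The count of lower genes became 1 with library size only, which is Ier3 at -0.45 (edgeR adjusted p = 0.0368), where 38.2% of all tested genes were called lower. When 1 library was left out, the log2 fold change ranged from -0.16 to 0.35 for Fos, from -0.32 to 0.040 for Junb, from -0.35 to 0.10 for the summed EGR level and from -0.34 to 0.018 for the ratio of the JUN to the FOS sum; none of these was called, and the cause of the change of sign was not tested. The ratio of the sums and its alternatives were added after the data were seen. Over the 16 alternatives, 19 to 23 genes of the 5 surrounding lists were called higher and 11 to 18 lower. Among all tested genes, 7810 to 9792 were called. Of the single-gene values under an alternative, 104 kept direction and call, 5 changed sign (Fos and Junb, above) and 1 gained a call (Ier3).

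Adding the replicate number as a block (replicate block) gave 9235 calls, of which 9138 are among the 9345 made without it, and left Jun at 1.09, Jund at 0.42 and Fosl2 at 1.23, all 3 called, with 0 lower. Deviations of same-numbered libraries from their group means correlated at -0.05, -0.04 and -0.01, and no library of either time correlated best with its own number. The labels do not state whether same-numbered libraries share a culture. These correlations cannot decide it, since the spread between libraries could hide a small shared effect. Depth limits Fosb, Fosl1 and Egr2, which had 0 to 12 counts in a library.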
